A study of Mus musculus with 24 samples.

Results

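MicroRNAs purified through a label after a short pulse were compared with unpurified microRNAs of the same cell line, using 5 of 24 small RNA libraries of mouse 3T9 cells. 3T9 is an immortalised line of mouse embryo fibroblasts, and the labels record no genetic change in any group. The 5 libraries were chosen by their labels alone. The labelled 0 h group had 3 libraries, from experiments 1, 2 and 3, of RNA taken after 3 h with 300 µM 4-thiouridine (4SU) and purified through the label. Against it stood 2 libraries of total RNA that had not been purified, 1 from cells given 4SU (total 4SU RNA) and 1 from cells given none (total unlabelled RNA). A further library, the negative extraction, came from cells given no 4SU whose RNA was put through the same purification, and served only as a check of that step. The labels state 40 µg of total RNA for each purification, with biotin coupled to the thiol and capture on streptavidin beads, and 300 ng of RNA for each TruSeq small RNA library. The series design calls the experiments independent replicas, but no label says whether the total RNA came from any of them, so p-values measure only the spread between these libraries.

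A microRNA (miRNA) is cut from a hairpin precursor as a duplex of a 5p and a 3p strand. In most hairpins Argonaute keeps one strand, the guide, and the other, the passenger, is degraded. Mature miRNAs are often shortened or extended by a few bases at the 3' end, and untemplated A or U can be added there by terminal nucleotidyltransferases. 4SU enters only RNA made after it is added, so purification through it is meant to weight a pool towards recent transcripts. Total RNA holds whatever has accumulated.

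The sequences that carry the main differences are given first, grouped by direction and by shared seed. Capitals mark the seed, bases 2 to 8, which pairs with target mRNAs. All are mature sequences from RefSeq on the GRCm38.p6 build, where 1037 of the 1221 names in the table had an entry. The let-7 guides that were higher in labelled 0 h RNA share the seed GAGGUAG and differ by a few bases beyond it.
let-7a-5p: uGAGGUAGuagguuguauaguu
let-7b-5p: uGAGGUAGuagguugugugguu
let-7c-5p: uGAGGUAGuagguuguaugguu
let-7f-5p: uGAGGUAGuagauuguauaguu
Among the miRNAs that were lower, miR-19a-3p and miR-19b-3p share a seed, and the others shown are those taken up again with the arms of their hairpins or with their seed.
miR-19a-3p: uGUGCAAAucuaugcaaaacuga
miR-19b-3p: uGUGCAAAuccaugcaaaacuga
miR-301a-3p: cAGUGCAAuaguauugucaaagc
miR-18a-5p: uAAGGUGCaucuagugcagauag
miR-106b-5p: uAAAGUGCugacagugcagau
miR-193a-3p: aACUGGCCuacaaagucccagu
The next pairs are opposite arms by name, shown because the arms moved apart. miR-29b-3p has 2 gene copies, so its counts need not come from the hairpin of miR-29b-1-5p alone.
miR-29b-1-5p: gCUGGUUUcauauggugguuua
miR-29b-3p: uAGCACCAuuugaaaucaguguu
miR-30e-5p: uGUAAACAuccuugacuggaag
miR-30e-3p: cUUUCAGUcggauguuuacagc
miR-501-3p and miR-362-3p both lie in introns of Clcn5 and went in opposite directions.
miR-501-3p: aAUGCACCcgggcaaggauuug
miR-362-3p: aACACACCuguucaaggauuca
The last pair shares the seed ACCCGUA and had more forms with an added U in labelled 0 h RNA.
miR-99b-5p: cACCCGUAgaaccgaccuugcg
miR-100-5p: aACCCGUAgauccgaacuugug

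Summed miRNA counts were 3019171 to 7733333 in the labelled 0 h libraries, 4525638 in total 4SU RNA, 6412428 in total unlabelled RNA and 283922 in the negative extraction. The limit that 0 counts allow, 3 counts, was 0.388 to 0.994 CPM (counts scaled to a common library total of miRNA counts) for labelled 0 h libraries, 0.663 and 0.468 CPM for total 4SU and total unlabelled RNA and 10.6 CPM for the negative extraction. Intervals and such floors cover counting error only. Over the 287 miRNAs with a mean of at least 10 CPM in the 5 libraries, the log2 profiles of labelled 0 h libraries correlated with each other at 0.969 to 0.985, with total 4SU RNA at 0.879 to 0.894 and with total unlabelled RNA at 0.910 to 0.926. The total libraries correlated with each other at 0.975. The profile of the negative extraction lay nearer to labelled RNA (0.930 to 0.948) than to total 4SU (0.890) or total unlabelled RNA (0.903). These are descriptions over miRNAs of the same libraries, which differ in depth. The table also carries a code for each library that the labels do not explain: the 3 labelled 0 h libraries had 3 codes, both total libraries had 1 other code, and the negative extraction shared that of 1 labelled 0 h library. Whatever the code records, it cannot be told apart from the purification. Mesenchymal miRNAs, the markers of fibroblasts, summed to 177313 to 258851 CPM in labelled 0 h RNA and to 385125 to 439808 CPM in total RNA.

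Most of the miRNAs that differed between labelled 0 h and total RNA were lower in labelled RNA. Of 445 miRNAs tested, 106 passed edgeR's quasi-likelihood test (23.8%), of which 23 were higher (5.17%) and 83 lower (18.7%) in labelled 0 h RNA. The lower group had a median log2 fold change of -2.27 and reached -5.70, and the higher group had a median of 1.59 and reached 4.73. Values of labelled 0 h and total RNA did not overlap for 220 of the 445 (49.4%), which is the background for every such statement on single miRNAs. The higher miRNAs held 22.1% of labelled 0 h counts and 7.26% of total RNA counts, and the lower ones 11.7% of labelled 0 h counts and 36.9% of total RNA counts. Between libraries, 108 to 131 of the 287 miRNAs differed at least 2-fold from labelled to total RNA, against 28 to 61 within the labelled group and 44 between the total libraries.

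The split by direction depended on the scaling. With upper-quartile scaling, which moved the median of all miRNAs to 0.18 from -0.03, 42 of 117 calls were higher (35.9%), and DESeq2, with the median at 0.13, called 45 higher and 80 lower. Without total 4SU RNA the calls numbered 69, with 6 higher and 63 lower. Total 4SU RNA was the higher of the total libraries for 72 of the 83 miRNAs that were lower in labelled 0 h RNA (86.7%) and for 9 of the 23 that were higher, beside 317 of all 445 (71.2%). Those libraries also entered the calls.

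**Figure D1:**
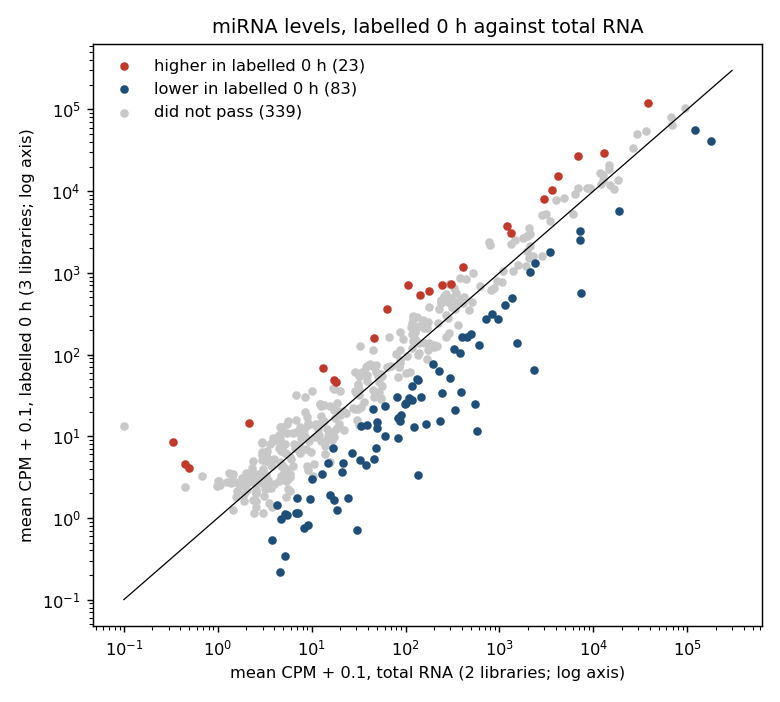
Mean CPM of 445 tested miRNAs in labelled 0 h RNA (vertical, 3 libraries) against total RNA (horizontal, 2 libraries), both on log axes with 0.1 CPM added and a line of equal levels. Points for the 83 lower miRNAs lie below the line over the whole range of abundance, and the 23 higher ones include several let-7 guides near the top.

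The let-7 guide strands, which restrain growth and stem cell programmes, were mostly higher in labelled 0 h RNA. Of 9 tested, 7 rose and 0 fell, while let-7g-5p and let-7i-5p did not pass, with a median log2 fold change of 1.40 beside -0.03 over all miRNAs, and the 9 members summed to 211660 to 265448 CPM in labelled 0 h RNA against 86562 CPM in total 4SU RNA and 107835 CPM in total unlabelled RNA. The median stayed positive with total counts only (1.53) and upper-quartile scaling (1.65). Over all 445 tested miRNAs 5.17% were higher and 18.7% lower. In the negative extraction the same 9 summed to 325614 CPM. Its part in the result was not tested. Without total 4SU RNA 3 of the 9 passed, let-7a-5p, let-7c-5p and let-7f-5p (median 1.05), and without total unlabelled RNA 5 passed.

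let-7f-5p, the most abundant of them in each library but total 4SU RNA, where let-7i-5p stood at a like level, had 130730, 131543 and 93955 CPM in labelled 0 h RNA, against 32118 CPM in total 4SU RNA and 43464.5 CPM in total unlabelled RNA. All 3 labelled libraries were more than 2-fold above both total libraries, and the fitted log2 fold change was 1.49 ± 0.31 (SE; edgeR adjusted p = 0.0062). let-7a-5p had 25692, 28353 and 26949.8 CPM in labelled 0 h RNA and 6399 and 7487 CPM in the total libraries (log2 1.81 ± 0.30, adjusted p = 0.00174). let-7c-5p, with 14984 to 16036 CPM in labelled 0 h RNA and 3843 and 4642 CPM in total RNA, rose by a log2 value of 1.71 (adjusted p = 0.00268), and let-7b-5p by 1.51 (adjusted p = 0.0062). The labelled libraries lay close together for let-7a-5p and let-7c-5p. For none of these did the groups overlap, but the rule that picked them by fold change required that. let-7d-5p, let-7e-5p and miR-98-5p also rose, by 1.29, 1.40 and 1.05. let-7i-5p, with 48428 to 60999 CPM in labelled 0 h RNA and 32338 and 39545 CPM in total RNA, did not pass (log2 0.44, adjusted p = 0.279). Without total 4SU RNA the calls of let-7b-5p (adjusted p = 0.087), let-7d-5p (0.160), let-7e-5p (0.183) and miR-98-5p (0.353) were lost. Those of let-7e-5p (0.0556) and miR-98-5p (0.0889) were also lost without total unlabelled RNA, and that of miR-98-5p without labelled 0 h replicate 3 (0.108).

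The strands opposite the let-7 guides did not follow them. Of 11 tested passengers 0 rose and 3 fell, with a median of -0.20 (0.01 without total 4SU RNA). The 27.3% that fell stand beside 18.7% lower and 5.17% higher over all 445 miRNAs, which for so short a list is not far apart. let-7d-3p, the most abundant, had 1938, 3061 and 1687 CPM in labelled 0 h RNA and 1421 and 1217 CPM in the total libraries, and did not pass (adjusted p = 0.216). The groups did not overlap for it, whereas let-7e-3p had 62.0 to 87.8 CPM in labelled 0 h RNA, between total 4SU RNA at 123 CPM and total unlabelled RNA at 53 CPM. The members that fell were miR-98-3p, let-7f-2-3p and let-7i-3p, with log2 fold changes of -2.33, -2.78 and -2.09.

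The remaining named miRNAs with the highest fold changes were scarcer and of several origins. Naming required a mean of at least 10 CPM in the higher group. miR-205-3p, miR-483-3p and miR-483-5p passed the test with higher fold changes than any named here (log2 4.73, 3.40 and 2.91). They averaged less than 10 CPM and so fell outside that rule. miR-23b-5p, the lesser arm of its hairpin in the miR-23b/27b/24 cluster (chr13:63300492-63300512, plus strand, an intron of 2010111I01Rik), had 18.5, 14.6 and 10.2 CPM in labelled 0 h RNA and 2.65 and 1.40 CPM in the total libraries. Each labelled value was above both total values, as the rule for naming required, and the log2 fold change was 2.75 ± 0.54 (adjusted p = 0.00407). Its neighbour miR-27b-3p showed no such difference, with 54681 to 69586 CPM in labelled 0 h RNA and 68326 and 69338 CPM in total RNA (log2 -0.24, adjusted p = 0.525). miR-501-3p (chrX:7241270-7241291, minus strand) had 457, 299 and 339 CPM in labelled 0 h RNA and 53.3 and 73.3 CPM in the total libraries (log2 2.36 ± 0.43, adjusted p = 0.00268). Here the negative extraction, at 95.1 CPM from 27 counts, was nearer to total RNA than to labelled RNA. miR-29b-1-5p had 44.7, 44.1 and 117 CPM against 11.7 and 14.7 CPM in total 4SU and total unlabelled RNA, and 0 counts in the negative extraction, a count that allows up to 10.6 CPM. Experiment 3 was the highest, and the log2 fold change was 2.24 (adjusted p = 0.0154).

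Another 5 named risers had log2 fold changes of 1.41 to 2.44: they were miR-205-5p, miR-574-5p, miR-669c-5p, miR-328-3p and miR-30a-3p, and in the fits that left out 1 library, or with an offset for base composition, each lost its call at least once, with adjusted p of up to 0.224. Without total 4SU RNA all 5 lost it, and so did miR-29b-1-5p (0.124). miR-669c-5p belongs to an array of near-identical repeats, and how reads shared among them were counted is not given in the sources used here. Other list members that rose were miR-99b-5p, with 25674 to 32883 CPM in labelled 0 h RNA and 15960.2 and 10028 CPM in total 4SU and total unlabelled RNA (log2 1.10, adjusted p = 0.0123, or 0.0732 without total unlabelled RNA), and miR-320-3p, whose hairpin is known not to need Drosha, with 1114 to 1257 CPM against 369.7 and 454 CPM (log2 1.36, adjusted p = 0.0164, or 0.224 without total 4SU RNA).

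miR-205-5p, a miRNA of epithelium, was the only listed marker of another cell type that was called higher. It had 1149.6, 621 and 359 CPM in labelled 0 h RNA, 30.9 CPM in total 4SU RNA and 182 CPM in total unlabelled RNA (log2 2.44 ± 0.78, adjusted p = 0.0453), and 648 CPM in the negative extraction. The spread within each group was wide. The groups did not overlap, which the rule that picked it by fold change required. miR-205-3p, the opposite arm and not a listed marker, was also called higher (log2 4.73, edgeR adjusted p = 0.0345). It had 21.6, 2.32 and 1.52 CPM in labelled 0 h RNA. In total 4SU and total unlabelled RNA it had 0 and 0.468 CPM, and in the negative extraction 70.4 CPM. Of the 7 epithelial markers, 2 were at 0 counts in all labelled libraries, 2 in both total libraries and 4 in the negative extraction. The list summed to 362 to 1151 CPM in labelled 0 h RNA and 33.1 to 186 CPM in total RNA, nearly all of it miR-205-5p, with miR-200a-3p and miR-429-3p at 0 in every one of these libraries. miR-203-3p, a keratinocyte marker, had 1.16 to 2.98 CPM in labelled 0 h RNA and 0.221 and 2.81 CPM in total RNA, but 70.4 CPM in the negative extraction. Another epithelial marker, miR-141-3p, had 0 to 0.994 CPM in labelled 0 h RNA and 21.1 CPM in the negative extraction. Its values in total 4SU and total unlabelled RNA were 1.10 and 1.56 CPM. The part of epithelial RNA in the result was not tested. Other markers gave few calls, beside 23.8% of all 445 miRNAs: blood had 0 of 2 tested members called, muscle 0 of 1 and neural 1 of 4. The last was miR-138-5p, lower with 19.9 to 22.6 CPM in labelled 0 h RNA and 51.5 and 38.2 CPM in total RNA (adjusted p = 0.042, lost without any 1 of the 5 libraries). Some were not scarce. The blood marker miR-486a-5p had 201 to 502 CPM in labelled 0 h RNA and 232 and 217 CPM in total 4SU and total unlabelled RNA. The neural marker miR-128-3p had 302 to 455 CPM against 335 and 339 CPM. No miRNA of liver or embryonic stem cells was abundant enough to be tested.

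**Figure D2:**
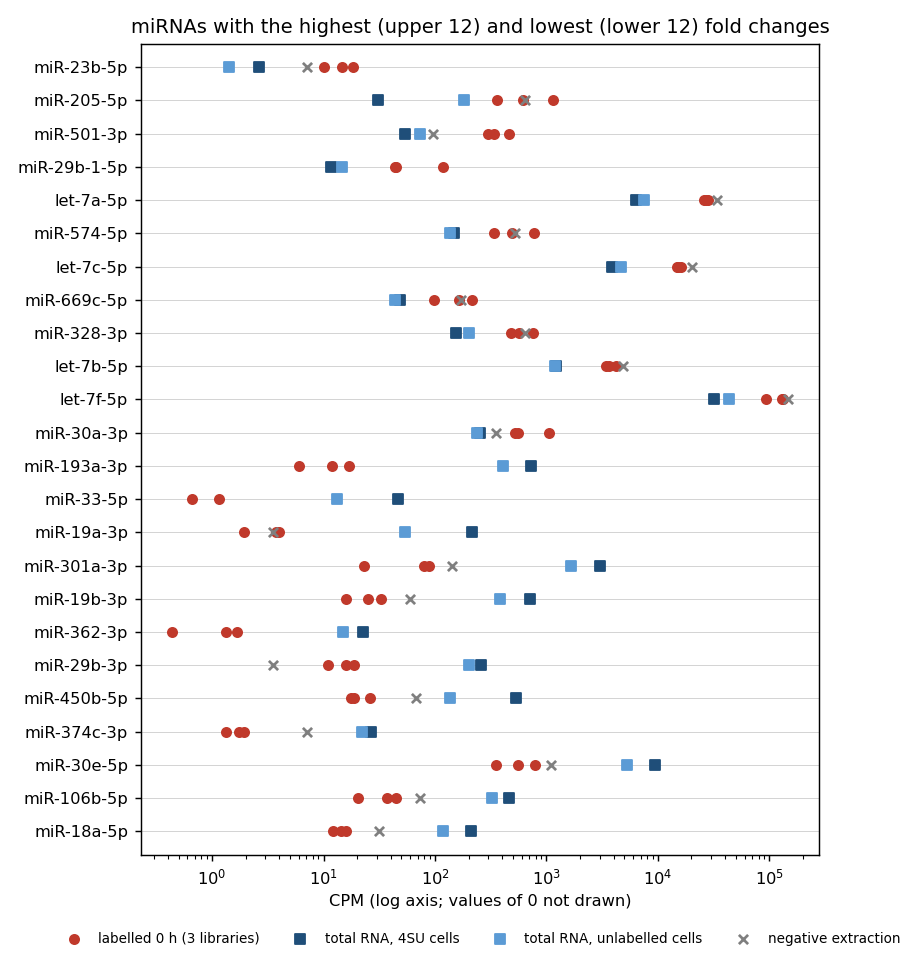
CPM on a log axis of the 12 named miRNAs with the highest and the 12 with the lowest log2 fold change, a row each, for 3 labelled 0 h libraries (red circles), total 4SU and total unlabelled RNA (dark and light blue squares) and the negative extraction (grey crosses). In every row the red circles lie on 1 side of both squares, as the rule that picked these miRNAs required. The crosses of the let-7 guides lie to the right of the circles.

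The largest fold changes were those of lower miRNAs, several of them guide strands of well known families. miR-193a-3p, described as a tumour suppressor, had 11.9, 16.9 and 6.07 CPM in labelled 0 h RNA against 733 CPM in total 4SU RNA and 408 CPM in total unlabelled RNA. All labelled values were low, and total RNA was 51.9-fold higher in the fit (log2 -5.70 ± 0.49, adjusted p = 8.48e-05). miR-33-5p, which lies in an intron of Srebf2 and represses cholesterol export, had 1.16, 0.662 and 0 CPM in labelled 0 h RNA, where 3 counts are 0.388 to 0.994 CPM, and 46.8 and 13.1 CPM in the total libraries (log2 -5.46, adjusted p = 0.000857). miR-301a-3p (chr11:87113054-87113076, plus strand, an intron of Ska2) had 79.7, 89.1 and 23.2 CPM in labelled 0 h RNA and 3036 and 1676 CPM in total 4SU and total unlabelled RNA (log2 -5.28 ± 0.54, adjusted p = 0.000103). The negative extraction held 0 counts of miR-193a-3p and miR-33-5p and 141 CPM of miR-301a-3p. miR-30e-5p was the most abundant of this group, at 550.3, 794 and 351 CPM in labelled 0 h RNA, 9479 and 5279.8 CPM in the total libraries and 1102 CPM in the negative extraction (log2 -3.77 ± 0.38, adjusted p = 0.000103).

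The other 8 named miRNAs with the lowest fold changes were miR-19a-3p, miR-19b-3p, miR-362-3p, miR-29b-3p, miR-450b-5p, miR-374c-3p, miR-106b-5p and miR-18a-5p, with log2 fold changes of -5.38 to -3.61. For each of the 12 the 3 labelled values lay below both total values, as the rule that picked them required. All 12 kept their call in all alternatives in which they were tested. miR-22-3p, the most abundant miRNA of total RNA, fell as well: it had 43589, 42573 and 38322 CPM in labelled 0 h RNA, 169206 and 192630 CPM in total 4SU and total unlabelled RNA, and 36912 CPM in the negative extraction (log2 -2.27 ± 0.25, adjusted p = 0.000145). miR-21a-5p, a growth-promoting fibroblast miRNA, had 43681 to 67759.6 CPM in labelled 0 h RNA against 110089 and 134101 CPM (log2 -1.28, adjusted p = 0.0105). Its opposite strand miR-21a-3p had 124 to 157 CPM against 1649 and 1419 CPM (log2 -3.58, adjusted p = 8.48e-05), and both strands of miR-21a were named here after their values were seen. Of the 9 tested mesenchymal miRNAs only miR-22-3p and miR-21a-5p passed, 22.2% beside 23.8% of all 445 miRNAs. miR-143-3p, the other leading member, ranged from 69169.6 to 136453 CPM in labelled 0 h RNA around 94688 and 92715 CPM in total RNA, and the sign of the list's median depended on the scaling (-0.22, or 0.03 with upper-quartile scaling) and on single libraries (0.15 without total unlabelled RNA and 0.07 without labelled 0 h replicate 2).

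Families with a common seed moved unevenly. Their counts stand beside 18.7% lower and 5.17% higher over all 445 miRNAs. All 3 members of the miR-29 family, which represses collagen mRNAs, fell (median -3.29): miR-29a-3p had 2581 to 3699.7 CPM in labelled 0 h RNA against 6861 and 7718 CPM in total 4SU and total unlabelled RNA (log2 -1.29, adjusted p = 0.0121), while the scarcer miR-29b-3p had 11.1 to 18.9 CPM against 260.1 and 199.9 CPM (log2 -4.02, adjusted p = 9.38e-05). The call of miR-29a-3p was lost without total unlabelled RNA (adjusted p = 0.0659) and with an offset for GC content (0.0822). Seeds were read only for miRNAs with a RefSeq sequence, so a family may have further tested members, such as miR-301b-3p. Of those read, 3 had the seed AGUGCAA, miR-130a-3p, miR-130b-3p and miR-301a-3p, and all 3 fell, by log2 values from 1.10 to 5.28 in size, with the call of miR-130a-3p lost without total 4SU RNA (adjusted p = 0.127) or labelled 0 h replicate 1 (0.0785). With the seed AAAGUGC, 3 of 4 fell, and the fourth, miR-93-5p, did not pass (log2 -0.61, adjusted p = 0.176). In the miR-30 family 3 of 5 fell and 0 rose: miR-30a-5p had 4262 to 7005 CPM in labelled 0 h RNA against 20242.9 and 17008 CPM (log2 -1.82, adjusted p = 0.0017), whereas miR-30d-5p, at 11605 to 12672 CPM against 18189 and 12253 CPM, did not pass (adjusted p = 0.243).

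miRNAs cut from a shared host transcript moved unevenly. Over both clusters of the miR-17 type, at Mir17hg and Mcm7, 0 of 16 tested miRNAs rose and 6 fell (median log2 fold change -0.52). The 37.5% that fell stand beside 18.7% lower over all 445 miRNAs. Mir17hg, the transcript of the growth-promoting cluster from miR-17 to miR-92a, held 8 tested miRNAs with a single listed place, of which 4 fell and 0 rose, with log2 fold changes from -5.38 to 0.28. The fallers were miR-17-5p (-1.50), miR-18a-5p (-3.61), miR-19a-3p (-5.38) and miR-20a-5p (-1.53). The call of miR-20a-5p was lost without total 4SU RNA and without labelled 0 h replicate 1 (adjusted p = 0.0732). Of the opposite strands, miR-17-3p (-0.18), miR-18a-3p (0.28) and miR-20a-3p (-0.52) did not pass. miR-92a-3p, a guide whose hairpin this cluster carries, had 61997, 97844 and 79818 CPM in labelled 0 h RNA, 74624 CPM in total 4SU RNA and 58755 CPM in total unlabelled RNA. Its groups overlapped (log2 0.16, adjusted p = 0.712). Mcm7 held 6 tested miRNAs, and of these miR-106b-5p alone passed, with 45, 20.5 and 37.3 CPM in labelled 0 h RNA against 460.5 and 328 CPM in total 4SU and total unlabelled RNA (log2 -3.62 ± 0.41, adjusted p = 0.000157). miR-25-3p from the same transcript had 8594 to 9531 CPM against 7016 and 5796 CPM and did not pass (adjusted p = 0.309).

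Clcn5 held 8 tested miRNAs, with 1 higher and 3 lower, beside 5.17% and 18.7% over all 445 miRNAs. Their log2 fold changes ran from -4.06 for miR-362-3p to 2.36 for miR-501-3p. The other fallers there were both arms of miR-188, at -2.93 for miR-188-3p and -2.66 for miR-188-5p, of which miR-188-3p lost its call without total 4SU RNA (adjusted p = 0.109) or total unlabelled RNA (0.0552), and miR-532-3p stood at -0.03 and did not pass. In Spaca6, which carries let-7e, miR-99b and miR-125a, the guides let-7e-5p and miR-99b-5p rose, whereas miR-125a-5p, with 13996.5 to 16492 CPM in labelled 0 h RNA and 15016 and 10465 CPM in total RNA, did not pass (adjusted p = 0.619).

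The counts of the remaining lists stand beside 23.8% called, 5.17% higher and 18.7% lower, over all 445 miRNAs. Of the miR-15/16 family, which restrains the cell cycle, 3 of 7 fell and 0 rose (median -0.66): miR-15a-5p, miR-497a-5p and miR-322-5p. miR-16-5p, its most abundant member, had 10768 to 17358 CPM in labelled 0 h RNA and 19284 and 17291 CPM in total RNA, with overlapping groups (adjusted p = 0.204). The call of miR-322-5p (adjusted p = 0.0495) was lost in 14 of 17 alternatives, and that of miR-15a-5p without total unlabelled RNA (0.0621). In the p53-induced miR-34 family 2 of 4 fell (median -0.47, or 0.82 without total unlabelled RNA): miR-34a-5p had 25.5 to 34.9 CPM in labelled 0 h RNA against 89.9 and 70.3 CPM in total 4SU and total unlabelled RNA (log2 -1.52, adjusted p = 0.0118, or 0.0577 without labelled 0 h replicate 1), and miR-34c-5p had 55.2 to 72.2 CPM against 124 and 328 CPM (log2 -2.06, adjusted p = 0.0123, or 0.208 without total unlabelled RNA). In the miR-23, miR-27 and miR-24 clusters 1 of 11 rose (miR-23b-5p) and 2 fell (median 0.18, or -0.28 without labelled 0 h replicate 3). The fallers were miR-24-2-5p (adjusted p = 0.067 without total unlabelled RNA) and miR-27a-3p (log2 -1.04, adjusted p = 0.0295, lost in 9 of 17 alternatives). In the miR-181 family 1 of 4 fell (miR-181c-5p) around a median of 0.56, while miR-181a-5p and miR-181b-5p did not pass (adjusted p = 0.458 and 0.125).

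Of 7 tested miRNAs with reported target-directed degradation 3 fell and 0 rose (median -0.89). They were miR-29b-3p, miR-30b-5p and miR-322-5p, and miR-30c-5p had 1366 to 1753 CPM in labelled 0 h RNA against 3597 and 2087 CPM in total 4SU and total unlabelled RNA (adjusted p = 0.053). Among 7 tested members of the related miR-10, miR-99/100 and miR-125 families miR-99b-5p rose and miR-10a-5p fell. miR-10a-5p had 15.9, 9.27 and 20.2 CPM in labelled 0 h RNA, 156 CPM in total 4SU RNA and 19.2 CPM in total unlabelled RNA, so the groups overlapped, and without total 4SU RNA its adjusted p was 0.494. Their median was -0.01, and positive with total counts only (0.07) and upper-quartile scaling (0.18). Of 36 Sfmbt2-type repeat miRNAs, a rodent-specific array, 1 rose and 4 fell (median 0.09), 13.9% called in all. Of 71 late-annotated names 1 rose and 6 fell (median 0.18), 9.86% called in all. Both shares are below the 23.8% of all miRNAs. Among 8 Drosha- or Dicer-independent miRNAs 1 rose (miR-320-3p) and 0 fell (median 0.29).

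Some lists had 0 calls in edgeR. In the cluster of miR-221-3p and miR-222-3p 1 of 4 had an unadjusted p under 0.05, DESeq2 called 1 and limma-voom 0 (median 0.37). Among 6 immediate early and inflammatory miRNAs 0 had such a p, DESeq2 called 1 and limma-voom 0, with miR-146b-5p at 2764, 1415 and 3013 CPM in labelled 0 h RNA, 274 CPM in total 4SU RNA and 1277 CPM in total unlabelled RNA. In the Dlk1-Dio3 cluster 2 of 5 had such a p and neither other tool called any. One of those was miR-376a-5p, listed at 2.33, 37.4 and 0 CPM in labelled 0 h RNA and at 0 counts in both total libraries. In the miR-26 family 0 of 2 had such a p, and neither other tool called any. The blood and muscle lists, with 0 calls each, had 0 members with such a p and 0 calls in DESeq2 and limma-voom.

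Base composition moved with the fold changes. Over the 369 tested miRNAs with a RefSeq sequence, the log2 fold change correlated with GC content at a Pearson coefficient of 0.258 and a Spearman coefficient of 0.267, and at 0.228 to 0.320 in single labelled libraries. The 25 miRNAs with under 35% GC had a median log2 fold change of -1.77, and 48.0% of them were lower in labelled 0 h RNA. The median was -0.53 in the 82 miRNAs from 35% to 45%, -0.01 in the 157 from 45% to 55% and 0.25 in the 105 at 55% or above, of which 11.4% were lower. The negative extraction was set against the mean of the same total libraries as a plain log2 ratio of CPM, with a constant added and without the scaling of the test. Its medians in these classes, in the same order, were -1.89, -1.11, -0.51 and -0.43. These are not on the scale of the fold changes, and its floor of 10.6 CPM limits them for scarce miRNAs. let-7a-5p and let-7f-5p, at 36.4% and 31.8% GC, were higher all the same. An offset for GC content, a choice made with the data in view, gave 94 calls, 29 higher and 65 lower. Of the 94 calls of the test without that offset among the same 369 miRNAs, 78 were shared.

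For the number of U, each a possible site of 4SU, the medians showed no steady gradient. The Pearson coefficient with the log2 fold change was -0.037 over 369 miRNAs and 0.080 over the 130 with a mean of at least 100 CPM, so its sign turned. Median log2 fold changes were 0.38 for the 42 miRNAs with up to 3 U, -0.28 with 4 or 5, -0.17 with 6 or 7 and 0.14 for the 96 with 8 or more. The share of higher miRNAs was 10.4% with 8 or more U and 2.97% to 4.76% in the other classes, and the share of lower ones 7.14% with up to 3 U and 20.8% to 22.8% in the others. The median number of U was 8 in the 19 higher miRNAs with a sequence, and 6 in the 75 lower ones and in those that did not pass. Trimmed and extended forms hold other numbers of U than these mature sequences. miRNAs that start with each base had medians between -0.15 (C) and 0.12 (G), and length correlated at 0.007. miRNAs are not independent replicates, so no p is given.

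**Figure D3:**
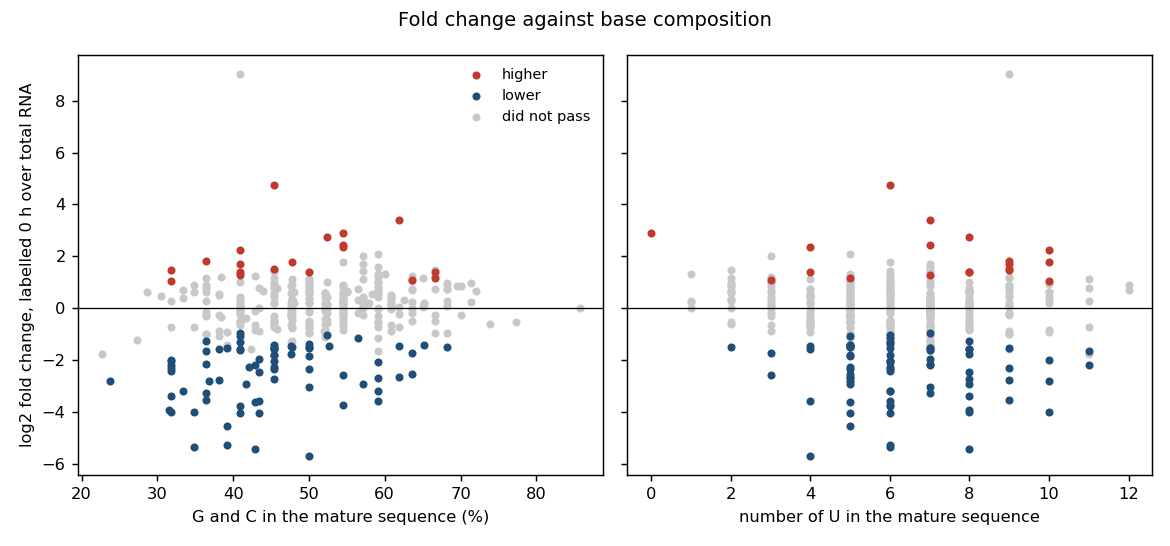
Log2 fold change of labelled 0 h over total RNA for 369 miRNAs against the GC content in % (left) and the number of U (right) of the mature sequence, coloured by the result of the test. Blue points, lower in labelled 0 h RNA, are denser at low GC, and with the number of U the correlation was -0.037.

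The arms of hairpins were compared next, since both strands of a duplex come from the same precursor. The major arm was taken from the labelled libraries at later times, which are not compared here. Among 138 hairpins with both arms tested, 37 had an arm called by edgeR's diffSpliceDGE (26.8%), with the minor arm relatively higher in labelled 0 h RNA in 13 (9.42%) and relatively lower in 24 (17.4%). Taking the p of the whole hairpin in place of that of an arm, a choice made after seeing the data, gave 51 hairpins. With the major arm from later times the medians differed little: the median log2 ratio of minor to major arm was -2.79, -2.78 and -3.07 in labelled 0 h RNA, -2.88 in total 4SU RNA and -3.04 in total unlabelled RNA, and -3.31 in the negative extraction. The difference of 0.08 gave p = 0.6 (exact permutation test, two-sided, for which 0.1 is the smallest p from 10 regroupings), and the median of the hairpins' own differences had the opposite sign (-0.26).

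Of the 6 hairpins with the lowest p and a relatively higher minor arm, 3 belong to the miR-30 family. miR-30e-3p made up 29.8%, 31.6% and 43.8% of both arms in labelled 0 h RNA, against 1.46% in total 4SU RNA and 2.34% in total unlabelled RNA, and 18.7% in the negative extraction (adjusted p = 0.00016). The groups were far apart. In CPM the 3p arm had 234, 367 and 274 in labelled 0 h RNA and 141 and 126 in the total libraries, which as a miRNA of its own did not pass (log2 1.01, adjusted p = 0.0806), while the 5p arm fell as given above. miR-30a-3p made up 8.78% to 13% against 1.23% and 1.38%, and miR-30b-3p 12.9% to 17.3% against 1.86% and 1.88%. The 5p arm of miR-301a made up 35.6%, 26.7% and 52.4% in labelled 0 h RNA, against 0.930% and 1.82% in total 4SU and total unlabelled RNA. In CPM this arm had 44.1, 32.5 and 25.6 in labelled 0 h RNA against 28.5 and 31.0, with overlapping groups (adjusted p = 0.955). miR-450b and miR-23b were the others of the 6, and the call of miR-23b was lost without total unlabelled RNA (adjusted p = 0.177).

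In the opposite direction stood hairpins whose leading arm in total RNA was the scarcer arm in most or all labelled 0 h libraries. miR-106b-5p made up 10.9%, 3.88% and 8.54% of both arms in labelled 0 h RNA, 64.4% in total 4SU RNA and 60.1% in total unlabelled RNA, and 21.6% in the negative extraction (adjusted p = 0.000121). Its partner miR-106b-3p had 366, 508 and 399 CPM in labelled 0 h RNA against 255 and 217 CPM, which did not pass (adjusted p = 0.166). miR-18a-5p made up 11.2%, 12.9% and 9.51% against 67.2% and 62.5% (adjusted p = 0.000241). For both, the 3p arm led in every labelled 0 h library and the 5p arm in both total libraries. The 3p arm of miR-193a made up 33.5%, 57.3% and 7.95% in labelled 0 h RNA and 98.5% and 98.0% in the total libraries, while the negative extraction held 0 counts of either arm. For miR-29b, whose 5p names were summed, the 3p arm made up 26%, 30% and 8.63% against 95.7% and 93.2%, with 1 count in the negative extraction.

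In the let-7 hairpins the minor arm was the passenger strand. It was relatively lower in labelled 0 h RNA in 5 of 9, beside 17.4% of all 138 hairpins. Those of let-7b, let-7c, let-7d and let-7g did not pass (adjusted p = 0.222, 0.436, 0.716 and 0.0838). The 3p arms of let-7a, whose 2 names were summed, made up 0.187%, 0.0887% and 0.120% in labelled 0 h RNA against 1.22% and 0.607% in total 4SU and total unlabelled RNA (adjusted p = 0.000239), and miR-98-3p made up 1.01%, 1.12% and 0.868% against 12.4% and 7.06% (adjusted p = 0.000121). The others called were let-7e (adjusted p = 0.0499), let-7f and let-7i, named after their values were seen. Of all 12 hairpins named, 11 kept their call in every alternative in which they were tested. Where the major arm was taken from total RNA, 37 hairpins were again called, but with the minor arm higher in 21 and lower in 16, since some hairpins then had their arms in exchanged roles.

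**Figure D4:**
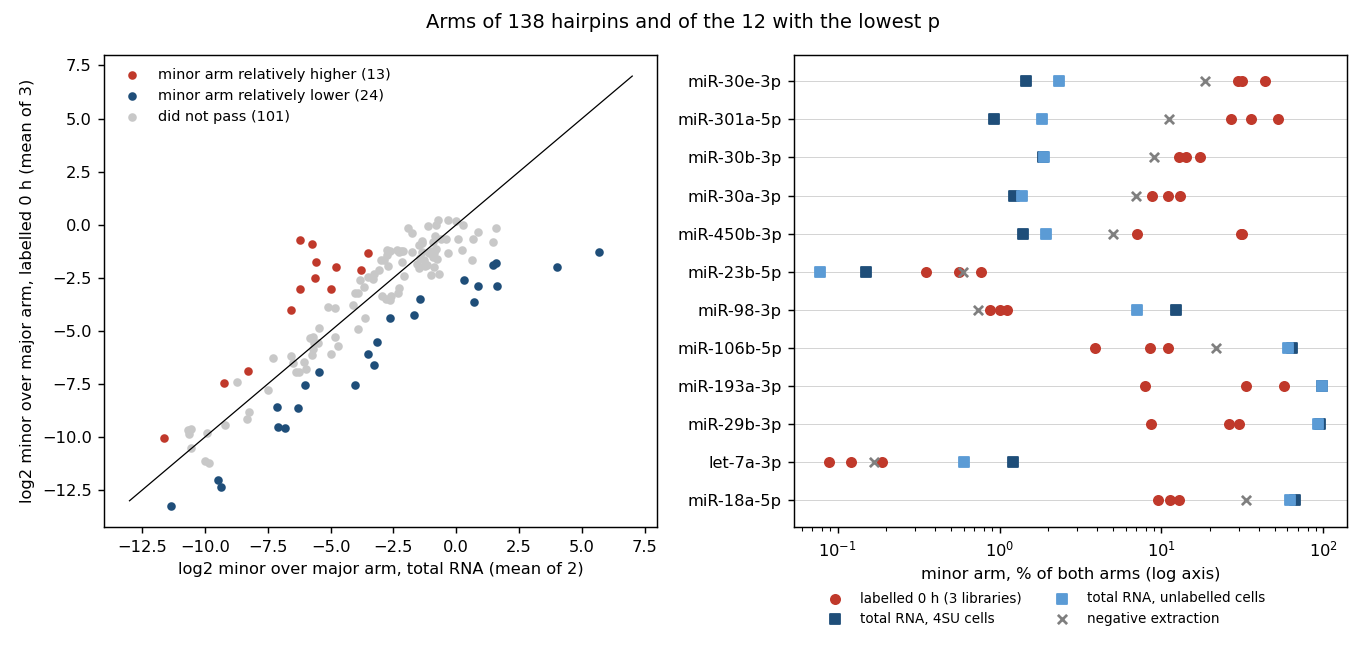
Left, log2 of minor over major arm in labelled 0 h RNA (vertical) against total RNA (horizontal) for 138 hairpins, with a line of equal ratios. Right, share in % of both arms (log axis) taken by the minor arm in the 12 named hairpins, for labelled 0 h libraries (red circles), total 4SU and total unlabelled RNA (dark and light blue squares) and the negative extraction (grey crosses): the upper 6 have all circles right of the squares and the lower 6 all circles left of them.

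Isoforms were compared as shares, first over whole libraries. Forms labelled as trimmed, a class whose definition is not given, made up 20.5%, 17.7% and 23.7% of miRNA counts in labelled 0 h RNA. They made up 14.0% in total 4SU RNA and 14.5% in total unlabelled RNA, with 17.1% in the negative extraction. Forms with a templated 3' extension made up 12.8%, 16.5% and 14.7% against 19.1% and 18.8%, with 11.6% in the negative extraction. In neither class did the groups overlap, and both gave p = 0.2 (exact permutation test of the difference in means, two-sided). Forms with an added 3' A made up 4.51%, 4.42% and 4.13% against 3.65% and 3.18%, and those with an added 3' C 0.468%, 0.698% and 0.981% against 1.67% and 1.55%. These reached 0.1, the smallest p possible in the exact permutation test (0.25 adjusted over 10 classes), as did 3' G and untemplated 5' forms. Shares of canonical, 3' U, mixed and templated 5' forms overlapped between the groups.

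Shares of whole libraries weight abundant miRNAs most. The 10 most abundant of each library held 61.5% to 65.1% of labelled 0 h counts and 65.3% and 70.8% of total 4SU and total unlabelled counts. Shares were also taken without a single set of 10, those most abundant over the 5 libraries together. Trimmed forms, 6.43 points higher in labelled 0 h RNA over all counts, were 3.89 points higher without that set. As the median over 181 miRNAs with at least 100 counts in each library they were 10.4%, 9.60% and 10.2% in labelled 0 h RNA against 9.45% and 9.85% in total 4SU and total unlabelled RNA, where the groups overlapped (0.43 points). The difference for 3' C was -0.892 points over all counts, -0.0189 without the 10 and -0.00853 as that median. For 3' A the sign turned with the weighting: labelled minus total was 0.939 percentage points over all counts, -0.0494 without the 10 most abundant miRNAs and -0.727 as the median over miRNAs. For templated 3' extensions it was -4.25 points over all counts, -7.15 points without the 10 and 0.208 points with that median.

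Within miRNAs, 13 of 1252 isoform entries passed edgeR's diffSpliceDGE (1.04%), 4 relatively higher (0.319%) and 9 relatively lower (0.719%). The clearest was an added U on miR-99b-5p. It made up 4.98%, 4.84% and 4.59% of miR-99b-5p counts in labelled 0 h RNA, 0.523% in total 4SU RNA and 0.565% in total unlabelled RNA, and 1.86% in the negative extraction. The labelled libraries lay close together and far from both total libraries (relative log2 change 3.15, adjusted p = 7.35e-07), and the call held in 8 of 8 alternatives. miR-100-5p, which has the same seed, had 1.48%, 1.21% and 1.09% with an added U in labelled 0 h RNA against 0.218% and 0.346% in total 4SU and total unlabelled RNA, and 1.05% in the negative extraction (relative log2 change 2.23, adjusted p = 0.00712). That call was lost without total 4SU RNA (adjusted p = 0.831), without total unlabelled RNA (0.0994) and without labelled 0 h replicate 1 (0.082). An added U was not higher everywhere: on miR-27a-3p it made up 0.639%, 1.28% and 0.438% in labelled 0 h RNA against 4.30% and 3.33% (relative log2 change -2.38, adjusted p = 0.000482, lost without total 4SU RNA).

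Trimmed forms of miR-22-3p made up 5.07%, 5.29% and 5.83% of its counts in labelled 0 h RNA against 1.41% and 1.47% in the total libraries, and 3.26% in the negative extraction (relative log2 change 1.90, adjusted p = 0.00289). The 3 labelled values lay close together and above both total values, and the call held in 6 of 8 alternatives. Added A was relatively lower in the 4 miRNAs called for it. On miR-130a-3p it made up 1.86%, 3.29% and 0.947% in labelled 0 h RNA against 14.7% and 10.9% in total 4SU and total unlabelled RNA (adjusted p = 0.00712), and the others were miR-181b-5p, miR-27a-3p and miR-143-3p, the last of these outside the rule for naming. Of 8 alternatives, the call held in 3 for miR-130a-3p, 3 for miR-181b-5p and 2 for miR-27a-3p. With limma-voom and diffSplice these 3 calls were lost (adjusted p = 0.121, 0.133 and 0.508). Added G was relatively lower on miR-130a-3p and miR-181b-5p, mixed additions on miR-181a-5p and trimmed forms on miR-192-5p. In the same order, these calls held in 4 of 8, 1 of 7, 5 of 8 and 5 of 8 alternatives. Untemplated 5' forms were relatively higher on miR-26a-5p, at 0.678%, 0.176% and 0.361% against 0.0718% and 0.0661%, a call that held in 5 of 8 alternatives. Without total 4SU RNA 1 of the 13 kept its call, that of miR-99b-5p, and the count ranged from 1 to 23 over the fits that left out a library.

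**Figure D5:**
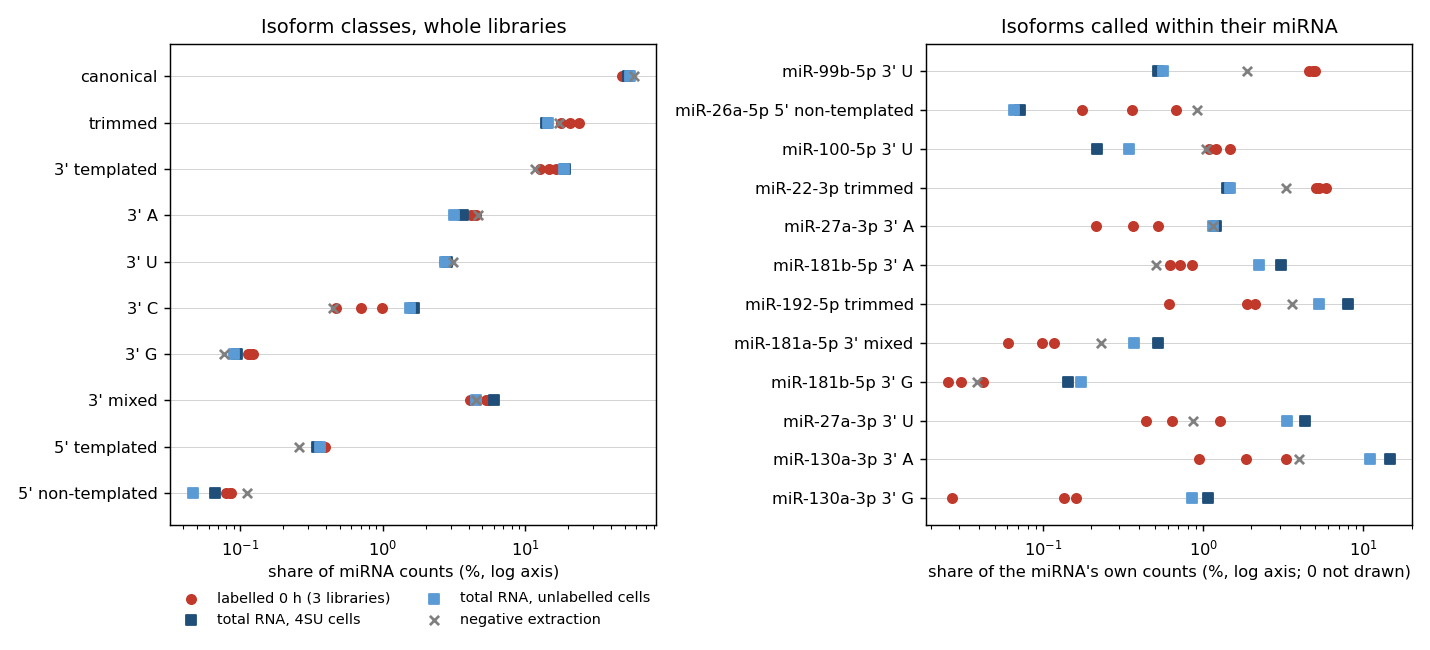
Left, share in % of all miRNA counts (log axis) of 10 isoform classes. Right, share in % of the miRNA's own counts (log axis) for 12 of the 13 isoforms called within their miRNA, both for labelled 0 h libraries (red circles), total 4SU and total unlabelled RNA (dark and light blue squares) and the negative extraction (grey crosses): on the right every isoform has its circles on 1 side of both squares.

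The negative extraction was set beside these results throughout because no 4SU was present in its cells. Of the 16 higher miRNAs with a mean of at least 50 CPM, it lay within the range of the labelled 0 h libraries for 6 and within that of the total libraries for 1. Of the 42 such lower miRNAs it lay within the labelled range for 9 and within the total range for 5. Over all 187 tested miRNAs at this level it lay within the labelled range for 60 (32.1%) and within the total range for 31 (16.6%). The labelled range spans more libraries than the total range, which alone makes it likelier to hold a further library. The shares within the labelled range therefore cannot be weighed against those within the total range. Labelled 0 h RNA and the negative extraction are both set against the same total libraries here, and its depth limits it to miRNAs well above 10.6 CPM. How much RNA of the labelled libraries came through the purification without carrying 4SU was not tested.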

How the data were processed

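The deposited values are whole counts per mature miRNA and isoform class, which the authors made from small RNA reads, and the submitters' processing notes name CASAVA 1.8.0. For the aligner, annotation and class definitions, details were not given in the sources used here. The deposited table held 7129 entries, 1221 miRNA names and 20 classes. Classes that repeat other entries were left out of all sums (25728 of 25728 cells tested for this were equal). Of the rest, 10 were compared as isoform classes, and the entries for untemplated variants of canonical and trimmed forms entered the miRNA sums only. A duplicate entry was removed, and 0 columns of single samples stayed unmapped. Libraries were grouped by their labels, and column names were matched to sample titles.

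The counts kept were summed per miRNA, filtered with filterByExpr (minimum count 10), scaled by TMM and tested with the quasi-likelihood test of edgeR 4.0.16 in R 4.3.3, for labelled 0 h libraries over both total libraries together, with Benjamini-Hochberg adjustment over all miRNAs tested and a threshold of 0.05. SE is the size of the log2 fold change over the root of F. Hairpin arms and isoforms within miRNAs were tested with edgeR's diffSpliceDGE. Names that share a hairpin name and arm were summed, the major arm came from the labelled libraries of 2 h to 12 h, and arm ratios had 1 CPM added (5 in an alternative). Class shares and the median arm ratio were compared by exact permutation over the 5 libraries. Shares within miRNAs used the 181 miRNAs with at least 100 counts in every library.

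Alternatives were total-count and upper-quartile scaling, DESeq2 1.42.0, limma 3.58.1 with voom, other filters, all 24 libraries in the fit, canonical sequences only, every entry summed, thinning to 3019170 counts, an offset for the number of U and leaving out each library. An offset for GC content and a p per hairpin were added after seeing the data. The tests across miRNAs, arms and isoforms were checked on simulated counts.

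Named miRNAs were the 12 with the highest and the 12 with the lowest log2 fold change among those that passed, did not overlap between the groups and averaged at least 10 CPM in the higher group, and the 2 most abundant members of each list. Named hairpins were the 6 with the lowest p in each direction, and named isoforms up to 3 per class and direction with at least 100 counts. The members and lists were chosen with earlier results of these data known. Host genes came from GENCODE vM21 on GRCm38.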

Additional observations from a re-analysis of the deposited data

Results flagged for a closer look

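The negative extraction, a library that no comparison uses, lay above all 5 libraries compared for 11 named miRNAs, judged by its 95% Poisson interval where it held at least 100 counts. Among let-7 guides it held 147977 CPM of let-7f-5p, 72509 CPM of let-7i-5p, 33661 CPM of let-7a-5p, 20319 CPM of let-7c-5p and 4909.8 CPM of let-7b-5p. It also held 47030.5 CPM of miR-26a-5p, 10094 CPM of miR-25-3p, 9045 CPM of miR-181b-5p, 3867 CPM of miR-30c-5p, 3811 CPM of miR-322-5p and 384 CPM of miR-466b-3p. let-7a-5p, let-7b-5p, let-7c-5p and let-7f-5p were higher and miR-322-5p was lower in labelled 0 h than in total RNA. This flag looked only for values above the 5 libraries, and the 11 were not set against all named miRNAs with as many counts. Other named miRNAs lay below all 5 by the same interval and were not counted. Among them were miR-22-3p, miR-143-3p and miR-29a-3p, at 36912, 63919 and 1479 CPM in the negative extraction. The intervals cover counting error of a single library only.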

How the results depend on the processing

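No paired analysis was possible because the total libraries carry no experiment number. The count of called miRNAs (106) was 69 to 121 over the fits that left out a library, lowest without total 4SU RNA, and 87 to 132 under the other alternatives. Of these calls 34.1% were higher without a filter on low counts and 33.1% with all 24 libraries in the fit. The count of hairpins (37) was 25 to 47 over the fits that left out a library, 42 with limma, 26 with canonical sequences and 29 with the stricter filter. The count of isoforms (13) was 1 to 23 over the fits that left out a library, 20 with the stricter filter and 22 with voom and diffSplice. Some signs turned, and the cause was not tested. The difference in median arm ratio was -0.0602 with canonical sequences only, and the coefficient for the number of U was 0.0804 at 100 CPM or more. As medians over miRNAs, the shares of 3' A, templated 3' and canonical forms differed by -0.727, 0.208 and 0.527 points. Without the 10 most abundant miRNAs, 3' A, 3' U, mixed 3' and canonical forms differed by -0.0494, -0.0169, 0.0863 and 3.22 points. Over the fits that left out a library, 3' U differed by -0.0402 to 0.0826 points and mixed 3' forms by -1.02 to 0.475 points.

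With 3 libraries against 2, permutation cannot reach the threshold, and 1 total library of each kind leaves an effect of 4SU on total RNA untested.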
